A study of Mus musculus with 12 samples.

Results

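The 10 genes described here write, copy, remove or protect DNA methylation in mouse cells: Dnmt3a, Dnmt3b, Dnmt3l, Dnmt1, Uhrf1, Tet1, Tet2, Dppa3, Zfp57 and Trim28. They were found by symbol in a count table of 32285 genes, each symbol matched 1 row, and all 10 were among the 12765 genes with enough counts to be tested. The table comes from bulk RNA sequencing of untreated mouse embryonic stem cells in 4 genotypes with 3 libraries each. The genotypes were a DHX36 knockout (DHX36 KO), a FANCJ knockout (FANCJ KO), the DHX36/FANCJ double knockout and wild type (WT). All were made in IB10 cells, an embryonic stem cell line of 129/Ola mouse origin, grown on gelatin in medium conditioned by Buffalo rat liver cells, with fetal calf serum and leukaemia inhibitory factor. DHX36 is a helicase that unwinds G-quadruplexes, stacked structures of guanine-rich RNA and DNA, and FANCJ, the product of Brip1, is a helicase of crosslink repair that also unwinds them in DNA. Whether a knockout genotype was 1 clone or several, and whether its libraries came from separate cultures, is not stated in the labels. The p-values therefore measure the spread between these libraries, which may be technical, and differences between clones cannot be told apart from the loss of a helicase.

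Methyl groups on cytosines of CpG pairs are placed on unmethylated DNA by DNMT3A and DNMT3B, with DNMT3L as a cofactor that has no catalytic activity of its own. After replication, UHRF1 finds hemimethylated CpGs and brings in DNMT1, which copies the mark to the new strand. TET enzymes oxidise the mark and so lead to its loss. DPPA3, also called STELLA, shields maternal marks from oxidation in the zygote and can displace UHRF1 from chromatin, while ZFP57, a zinc finger protein, and its partner TRIM28 keep methylation at imprinted control regions. Embryonic stem cells kept in serum are known for high methylation and high expression of the de novo enzymes.

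Total counts ran from 4284785 to 14721931 per library. Each DHX36 KO library and each double knockout library was deeper than each WT library, and the FANCJ KO totals overlapped with those of WT. Mitochondrial genes took 11.01% to 12.3% of the counts in DHX36 KO, 11.2% to 11.5% in FANCJ KO, 11.9% to 13.2% in the double knockout and 10.0% to 10.6% in WT, so that every knockout library lay above every WT library. The part of depth and of this share in the results was not tested beyond a fit at equal depth. Levels are given as CPM, for which each count is divided by its library's total after correction by trimmed means, and set to the usual common depth. The targeted genes were checked first. Dhx36 had 10.9, 8.84 and 11.6 CPM in DHX36 KO, 57.2, 51.5 and 58.0 in FANCJ KO, 12.2, 15.1 and 14.5 in the double knockout and 54.7, 57.6 and 50.1 in WT. Brip1 had 58, 47 and 75 counts in DHX36 KO, 1, 2 and 3 in FANCJ KO, 11, 4 and 2 in the double knockout and 31, 38 and 30 in WT. Both were thus low in the genotypes named for them. All 9 stem cell markers, Pou5f1, Sox2 and Nanog among them, had counts in every genotype, with summed levels of 4972 to 5212 CPM in DHX36 KO, 3961 to 4189 in FANCJ KO, 6025 to 6086 in the double knockout and 4454 to 4538 in WT. Of other lineages, 6 trophoblast markers summed to 131 to 153 CPM in DHX36 KO, 166 to 197 in FANCJ KO, 124 to 137 in the double knockout and 131 to 148 in WT, where Elf5 was at 0, and 6 fibroblast markers summed to 64.9 to 72.3 CPM in DHX36 KO, 76.3 to 81.9 in FANCJ KO, 28.7 to 32.3 in the double knockout and 79.0 to 86.6 in WT. The trophoblast sums hid opposite changes. Of the 5 tested, 1 rose and 2 fell in DHX36 KO against WT, and 2 rose in FANCJ KO. In the double knockout 2 rose and 2 fell, to be read against the shares of all genes called, given below. Krt7 averaged 14.8 CPM in DHX36 KO, 74.5 in FANCJ KO, 14.9 in the double knockout and 51.4 in WT. Hand1 averaged 87.1, 56.8, 53.5 and 36.8 CPM in that order. Of the 3 fibroblast markers with enough counts to be tested, Col1a1 and Col1a2 fell by 2.59 and by 0.57 on the log2 scale in the double knockout and Thy1 rose by 1.61. The part of these markers in the members' levels was not tested.

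The de novo methyltransferase genes Dnmt3a and Dnmt3b and the gene for DPPA3 rose wherever DHX36 was missing, Dnmt3l rose only in the double knockout among the 3 comparisons with WT, and no change was detected for the maintenance genes Dnmt1 and Uhrf1. In DHX36 KO against WT, 3 members rose (Dppa3, Dnmt3a and Dnmt3b) and 1 fell (Trim28), where 24.4% of all genes tested were called (12.8% up and 11.6% down), with edgeR's quasi-likelihood test and an adjusted p under 0.05. In FANCJ KO against WT, 1 member fell (Dppa3) and none rose, where 2.07% of all genes were called (1.45% up and 0.619% down). A further 4 members had an unadjusted p under 0.05 there, 5 in all, and DESeq2 called 2 members. In the double knockout against WT, 5 members rose (Dnmt3a, Dppa3, Dnmt3l, Tet2 and Dnmt3b) and none fell, where 33.9% of all genes were called (16.6% up and 17.3% down), and 3 members rose without WT library 2. The members' counts are to be read against these shares, and nothing particular to the 10 genes follows from them. The median log2 fold change of the 10 members was -0.03 in DHX36 KO, -0.12 in FANCJ KO and 0.33 in the double knockout, beside 0.00, -0.00 and 0.01 over all genes. These 3 comparisons share the WT libraries. In bulk RNA, fewer cells with a transcript and less of it in each cell cannot be told apart.

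**Figure D1:**
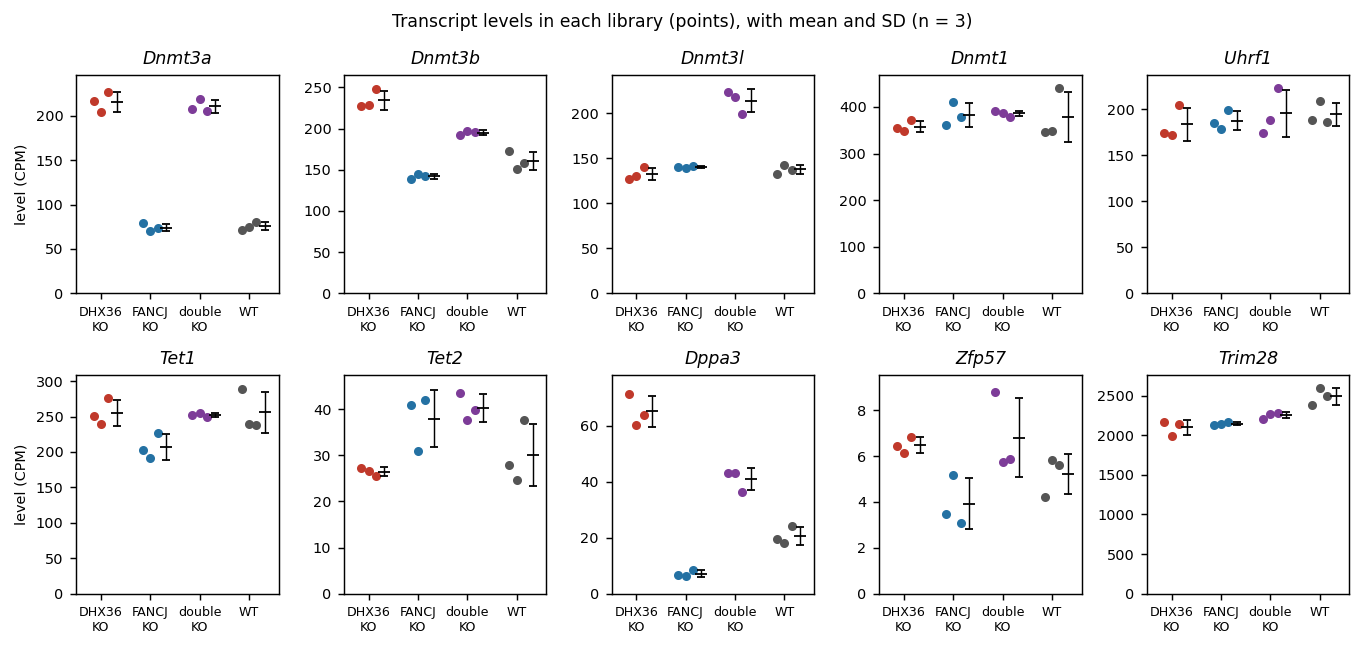
Level of each gene (CPM, linear axis from 0) in every library, by genotype from DHX36 KO through FANCJ KO and the double knockout to WT; points are libraries, and the dash and bar beside them are the mean and SD (n = 3). Dnmt3a lies between 204 and 226 CPM in the 6 libraries without DHX36 and between 70.3 and 80.8 CPM in the 6 with it.

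Dnmt3a, the de novo enzyme of somatic and germline patterns (ENSMUSG00000020661, GRCm38 chromosome 12, 3806007 to 3914443, plus strand), followed the DHX36 genotype. It had 217, 204 and 226 CPM in DHX36 KO, 79.0, 70.3 and 73.2 in FANCJ KO, 208, 219 and 205 in the double knockout and 71.7, 75.3 and 80.8 in WT. The libraries without DHX36 lay together far above those with it, DHX36 KO overlapped with the double knockout, and FANCJ KO overlapped with WT. The mean was 216 ± 11.3 CPM (SD, n = 3) in DHX36 KO and 75.9 ± 4.56 in WT, a log2 fold change of 1.51 (SE 0.09), or 2.84-fold, with an adjusted p of 7.03e-11 in edgeR. The double knockout, with 211 ± 7.48 CPM, stood 1.47 (SE 0.09) above WT. FANCJ KO, with 74.2 ± 4.42 CPM, differed from WT by -0.03 (95% interval -0.22 to 0.15, adjusted p = 0.914 in edgeR).

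Dnmt3b, the enzyme that methylates much of the genome around implantation (ENSMUSG00000027478, chromosome 2, 153649450 to 153687730, plus strand), moved the same way by less. It had 227, 228 and 247 CPM in DHX36 KO, 139, 145 and 142 in FANCJ KO, 192, 197 and 196 in the double knockout and 173, 151 and 158 in WT. No library of DHX36 KO or the double knockout fell within the WT range, and DHX36 KO stood highest. Against WT the log2 fold change was 0.55 (SE 0.08, adjusted p = 2.68e-05) in DHX36 KO and 0.28 (SE 0.08, adjusted p = 0.00848) in the double knockout, by edgeR. The call in the double knockout ended without WT library 2 (0.24, adjusted p = 0.0510). Dnmt3b was lower in the double knockout than in DHX36 KO (-0.26, SE 0.08, adjusted p = 0.0182 in edgeR). That call was lost with all libraries thinned to an equal depth (-0.18, adjusted p = 0.207), with no filter on low counts (-0.25, adjusted p = 0.0530), and without DHX36 KO library 3 (-0.22, adjusted p = 0.0907), double knockout library 1 (-0.25, adjusted p = 0.0659) or double knockout library 2 (-0.27, adjusted p = 0.0508).

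Dnmt3l, the catalytically inactive cofactor of both enzymes (ENSMUSG00000000730, chromosome 10, 78041947 to 78063622, plus strand), had 127, 131 and 140.2 CPM in DHX36 KO, 141, 139 and 141 in FANCJ KO, 224, 218 and 199 in the double knockout and 133, 143 and 137 in WT. Each double knockout library lay above all 9 others, whose ranges overlapped. It averaged 214 ± 12.7 CPM (SD, n = 3) in the double knockout and 138 ± 4.93 in WT, a log2 fold change of 0.63 (SE 0.08, adjusted p = 2.26e-06 in edgeR). In the single knockouts the change was -0.05 (95% interval -0.22 to 0.12) without DHX36 and 0.03 (-0.15 to 0.20) without FANCJ.

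Dnmt3a and Dnmt3b are known to rise as cells leave naive pluripotency, so markers of that step were set beside them. Of 7 formative and primed markers, 4 rose in DHX36 KO, none in FANCJ KO and 1, Otx2, in the double knockout, and none fell. Otx2, a transcription factor of that step, stood 2.23 above WT on the log2 scale in DHX36 KO and 2.61 above WT in the double knockout. The median log2 change of the 7 was 0.60 in DHX36 KO, -0.08 in FANCJ KO and -0.10 in the double knockout. Of the 9 stem cell markers, 3 rose in DHX36 KO, none in FANCJ KO and 7 in the double knockout, and none fell. Of all genes tested, 12.8% rose in DHX36 KO, 1.45% in FANCJ KO and 16.6% in the double knockout. The 7 formative and primed markers summed to 357 to 383 CPM in DHX36 KO, 171 to 175 in FANCJ KO, 283 to 310 in the double knockout and 176 to 194 in WT. The higher sum in the double knockout than in WT lay mostly in Otx2, with 127 CPM against 20.7. Fgf5, Pou3f1, Sox3 and Cdh2 averaged lower in the double knockout than in WT, and Lef1 and Pim2 higher. Against DHX36 KO, 5 of the 7 fell in the double knockout and 1 rose. The part of either marker list in the rise of Dnmt3a and Dnmt3b was not tested.

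Sequences that could form a G-quadruplex were looked for around the starts of the members, since such structures are what both helicases unwind. Promoters of 300 bases, 250 before and 50 after a start, were taken from RefSeq (GRCm38.p6) for 9 members, 18 promoters in all; the member without an entry was Dppa3, which was not searched. The motif was at least 4 runs of 3 or more G joined by loops of 1 to 7 bases, on either strand. It was in 7 of the 18 promoters, belonging to Dnmt3a, Dnmt3b, Dnmt3l, Dnmt1 and Zfp57, and in 18.6% of all 32851 promoters of that length. The 7 ran from 52.7% GC (Zfp57) to 81.0% (Dnmt3a), beside a median of 52.7% over all promoters searched. Several of the 18 belonged to the same gene, and the 18.6% is not limited to genes tested. Whether the members differed from promoters of like GC content was not tested. A selection of the matches is shown, some of those of the 3 de novo genes and, for contrast, that of Dnmt1, which was called in no comparison. Each is written 5′ to 3′ on the strand that carries the G runs, which are in capitals. All lines marked minus strand, except that of Dnmt1, which is itself a minus strand gene, lie on the strand opposite to the gene.
Dnmt3a, chr12:3807155-3807169, plus strand: GGGcGGGcGGGcGGG
Dnmt3a, chr12:3891724-3891751, minus strand: GGGGGcggaGGGGGccagaGGGaGGGGG
Dnmt3a, chr12:3891754-3891779, minus strand: GGGGGGaGGGGcaGGGGGcgttGGGG
Dnmt3b, chr2:153649389-153649408, plus strand: GGGcGGGGGcGGGGccaGGG
Dnmt3l, chr10:78049767-78049796, minus strand: GGGGaggagtGGGGGtGGGGtggatGGGGG
Dnmt3l, chr10:78055272-78055289, minus strand: GGGGGGGtGGGGaGGGGG
Dnmt1, chr9:20952674-20952693, minus strand: GGGtGGGGGtgaGGGGcGGG
A match was thus found both in genes that rose without DHX36 and in Dnmt1, and it is a description of letters, not of a structure formed in these cells. Within annotated untranslated regions, which would be carried by the RNA, the motif was found in the 3′ region of 1 member, Dnmt3a, and the 5′ region of 1 member, Zfp57. Among the genes tested, 12.9% held it in a 3′ region and 11.8% in a 5′ region.

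The pair that copies methylation at replication was called in none of the 7 comparisons. Dnmt1, the maintenance enzyme (ENSMUSG00000004099, chromosome 9, 20907209 to 20959888, minus strand), had 354, 349 and 371 CPM in DHX36 KO, 361, 409.5 and 378 in FANCJ KO, 391.6, 387 and 379 in the double knockout and 347, 348 and 441 in WT. The WT libraries spanned the range of every other genotype, with WT library 3 the highest of all 12. Its log2 difference from WT was -0.08 (95% interval -0.27 to 0.11) in DHX36 KO, 0.02 (-0.17 to 0.20) in FANCJ KO and 0.03 (-0.16 to 0.21) in the double knockout. Uhrf1, which recruits DNMT1 (ENSMUSG00000001228, chromosome 17, 56303321 to 56323486, plus strand), had 174, 172 and 204 CPM in DHX36 KO, 185, 179 and 199 in FANCJ KO, 174.5, 188 and 223 in the double knockout and 188, 209 and 186 in WT. All 4 genotypes overlapped, and the 95% intervals of its differences from WT ran from -0.29 to 0.12 in DHX36 KO, -0.26 to 0.15 in FANCJ KO and -0.20 to 0.21 in the double knockout.

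Dppa3, which protects methylation in the early embryo and can keep UHRF1 off chromatin, was the member with the widest range over genotypes. The gene (ENSMUSG00000046323, chromosome 6, 122626410 to 122630272, plus strand) had 71.3, 60.5 and 63.9 CPM in DHX36 KO, 6.83, 6.25 and 8.46 in FANCJ KO, 43.2, 43.1 and 36.5 in the double knockout and 19.5, 18.0 and 24.1 in WT. No genotype overlapped with another, and the order from high to low was DHX36 KO, double knockout, WT and FANCJ KO. Behind these levels stood 383 to 691 counts per library in DHX36 KO, 41 to 53 in FANCJ KO, 410 to 638 in the double knockout and 88 to 103 in WT. Against WT it rose by 1.68 on the log2 scale (SE 0.13, adjusted p = 6.52e-09) in DHX36 KO, fell by 1.53 (SE 0.17, adjusted p = 9.08e-06) in FANCJ KO and rose by 1.01 (SE 0.13, adjusted p = 3.22e-06) in the double knockout, by edgeR. In linear terms that was 3.20-fold higher, 2.89-fold lower and 2.01-fold higher than WT. All 3 calls held under each alternative tried.

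Dppa3 is also known to mark naive cells, 2-cell-like cells and germ cells, so markers of other states were set beside it. The summed level of 2-cell-like markers was 122 to 127 CPM in DHX36 KO, 62.3 to 75.0 in FANCJ KO, 71.7 to 77.6 in the double knockout and 35.7 to 45.9 in WT. Zscan4d was its largest part, with 69.9 CPM in DHX36 KO and 22.9 in WT. Of the 5 tested, 4 rose in DHX36 KO, 2 in FANCJ KO and 3 in the double knockout against WT, and none fell. The summed level of primitive endoderm markers was 73.5 to 77.0 CPM in DHX36 KO and 178 to 189 in FANCJ KO. It was 86.8 to 94.4 in the double knockout and 84.5 to 107 in WT. Of those 8 markers, 5 rose in FANCJ KO and none fell. In DHX36 KO 2 rose and 2 fell, and in the double knockout 3 rose and 1 fell. These counts are to be read against the shares of all genes called, given above. FANCJ KO, with the lowest Dppa3, thus had the highest sum of primitive endoderm markers, with Col4a1 its largest part (91.3 CPM, against 49.5 in WT). Gata6 averaged 4.08 CPM in DHX36 KO, 5.04 in FANCJ KO, 6.71 in the double knockout and 1.85 in WT. Sox17 averaged 10.8, 13.2, 9.76 and 2.59 CPM in that order. FANCJ KO also had the lowest sum of stem cell markers. None of those 9 was called there against WT, and their median log2 change was -0.13. The part of these states in the level of Dppa3 was not tested.

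Of the TET genes, which encode the enzymes that oxidise methylcytosine, Tet2 was called in 1 of the 3 comparisons with WT and Tet1 in none. Tet1 (ENSMUSG00000047146, chromosome 10, 62804570 to 62908996, minus strand) had 250.5, 239 and 276 CPM in DHX36 KO, 203, 192 and 227 in FANCJ KO, 252, 255 and 248.9 in the double knockout and 289, 239.9 and 239 in WT. The FANCJ KO libraries lay below all 9 others, but the difference from WT was not called (-0.31, SE 0.09, adjusted p = 0.0926 in edgeR). In DHX36 KO and the double knockout, Tet1 differed from WT by -0.00 (95% interval -0.19 to 0.19) and -0.02 (-0.21 to 0.17).

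Tet2 (ENSMUSG00000040943, chromosome 3, 133463679 to 133545139, minus strand) had 27.3, 26.5 and 25.5 CPM in DHX36 KO, 41.0, 30.8 and 42.1 in FANCJ KO, 43.6, 37.6 and 39.8 in the double knockout and 27.9, 24.7 and 37.7 in WT. WT library 3 stood apart from the other WT libraries and reached into the double knockout range. Tet2 rose by 0.43 on the log2 scale in the double knockout against WT (SE 0.14, adjusted p = 0.0199 in edgeR). The call was lost without double knockout library 1 (0.37, adjusted p = 0.0800), WT library 1 (0.39, adjusted p = 0.0724) or WT library 2 (0.30, adjusted p = 0.139), and at equal depth (0.27, adjusted p = 0.262). Its difference from WT was -0.18 (SE 0.15, adjusted p = 0.418) in DHX36 KO and 0.34 (SE 0.15, adjusted p = 0.268) in FANCJ KO.

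Of the imprint protectors, Zfp57 was called in none of the comparisons with WT and Trim28 in 1. Zfp57, which binds methylated imprinted control regions (ENSMUSG00000036036, chromosome 17, 37001163 to 37010635, plus strand), was the lowest counted member, with 15 to 130 counts per library. It had 6.45, 6.16 and 6.84 CPM in DHX36 KO, 3.48, 5.19 and 3.09 in FANCJ KO, 8.79, 5.74 and 5.88 in the double knockout and 4.21, 5.83 and 5.62 in WT. It was not called against WT, and the 95% intervals of its log2 differences were wide, from -0.20 to 0.83 in DHX36 KO, -0.96 to 0.18 in FANCJ KO and -0.11 to 0.88 in the double knockout.

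Trim28, the corepressor that ZFP57 and many other zinc finger proteins recruit (ENSMUSG00000005566, chromosome 7, 12999114 to 13031035, plus strand), had 2162, 1996 and 2138 CPM in DHX36 KO, 2135, 2137 and 2166 in FANCJ KO, 2208, 2273 and 2281 in the double knockout and 2384, 2600 and 2494 in WT. Every knockout library lay below every WT library. It fell by 0.25 on the log2 scale in DHX36 KO (SE 0.07, adjusted p = 0.0121 in edgeR), a call lost without DHX36 KO library 2 (-0.21, adjusted p = 0.0634). The differences of -0.22 (SE 0.07, adjusted p = 0.125) in FANCJ KO and -0.15 (SE 0.07, adjusted p = 0.115) in the double knockout were not called by edgeR, and DESeq2 called that in FANCJ KO (-0.21, adjusted p = 0.0339).

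**Figure D2:**
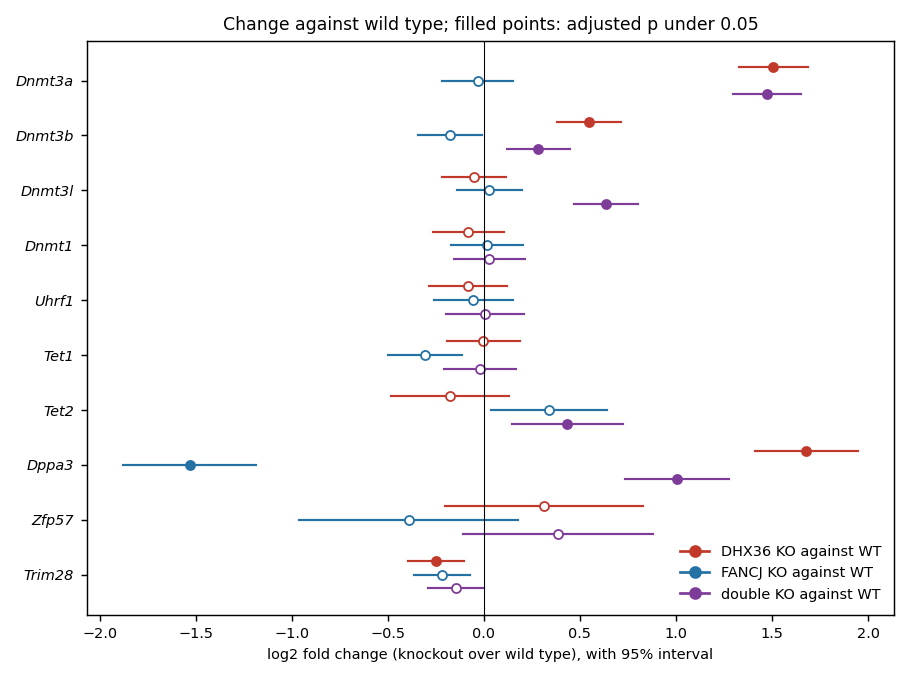
Log2 fold change of each gene against WT in DHX36 KO, FANCJ KO and the double knockout, with 95% intervals from edgeR; filled points are called at an adjusted p under 0.05. Dppa3 is at 1.68, -1.53 and 1.01, and Dnmt3a at 1.51, -0.03 and 1.47.

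The double knockout also allowed cells with and without each helicase to be compared where the other was missing. For FANCJ loss in cells lacking DHX36, as the double knockout against DHX36 KO, 2 members were higher (Dnmt3l and Tet2) and 2 lower (Dppa3 and Dnmt3b). Of all genes, 19.7% were called there (8.28% up and 11.4% down). Dnmt3l stood 0.69 (SE 0.08, adjusted p = 1.80e-06) and Tet2 0.61 (adjusted p = 0.00221) above DHX36 KO on the log2 scale, while Dppa3 fell by 0.67 (adjusted p = 0.000152), by edgeR. At equal depth 2 members were called, and Tet2 was not among them (0.45, adjusted p = 0.0906).

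For DHX36 loss in cells lacking FANCJ, as the double knockout against FANCJ KO, 6 members were higher and none lower. Of all genes, 36.8% were called there (18.3% up and 18.5% down). The 6 were Dppa3 (2.54, adjusted p = 1.55e-11), Dnmt3a (1.50), Zfp57 (0.78, adjusted p = 0.0121), Dnmt3l (0.61, adjusted p = 2.80e-06), Dnmt3b (0.46, adjusted p = 8.68e-05) and Tet1 (0.29, adjusted p = 0.0163), as log2 fold changes by edgeR. The Tet1 call was lost without FANCJ KO library 1 (0.27, adjusted p = 0.0631) or library 2 (0.23, adjusted p = 0.0898). The Zfp57 call was lost without FANCJ KO library 1 (0.66, adjusted p = 0.0693), FANCJ KO library 3 (0.66, adjusted p = 0.0501) or double knockout library 1 (0.54, adjusted p = 0.100), and at equal depth (0.93, adjusted p = 0.0673).

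Between the single knockouts, DHX36 KO against FANCJ KO, 5 members were higher (Dppa3, Dnmt3a, Dnmt3b, Zfp57 and Tet1) and 1 was lower (Tet2), where 30.2% of all genes were called (15.4% up and 14.8% down). Dppa3 was 3.21 higher on the log2 scale and Dnmt3b 0.72 higher in DHX36 KO than in FANCJ KO, and Tet2 was lower there (-0.51, adjusted p = 0.00737 in edgeR). Tet1 was 0.30 higher (adjusted p = 0.0144), and without DHX36 KO library 3, FANCJ KO library 1 or FANCJ KO library 2 its adjusted p in edgeR was 0.0783, 0.0643 or 0.0877. Zfp57 was 0.70 higher (adjusted p = 0.0335), and without DHX36 KO library 1, DHX36 KO library 3, FANCJ KO library 1 or FANCJ KO library 3 its adjusted p in edgeR was 0.0671, 0.0919, 0.143 or 0.108. The Zfp57 call was also lost at equal depth (adjusted p = 0.124) and in DESeq2 (adjusted p = 0.0541).

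Whether the effect of one loss depended on the other was tested as an interaction, how far the FANCJ loss effect in cells lacking DHX36 exceeded that in cells with DHX36, on the log2 scale. It was called for 3 members, all positive, where 8.79% of all genes were called (2.73% positive and 6.06% negative). For Dnmt3l it was 0.66 (SE 0.11, adjusted p = 0.000555 in edgeR), with the effect of FANCJ loss at 0.69 without DHX36 and 0.03 with it. For Dppa3 it was 0.86 (SE 0.20, adjusted p = 0.00776), with FANCJ loss at -0.67 without DHX36 and -1.53 with it, so that the fall was smaller without DHX36. Both held under all 17 alternatives. For Trim28 it was 0.32 (SE 0.10, adjusted p = 0.0472), and the call held under 3 of the 17. It was lost without any 1 library other than WT library 1, with an adjusted p in edgeR of 0.0520 to 0.117. For Dnmt3a it was -0.00 (95% interval -0.25 to 0.24), so the effect of DHX36 loss was 1.50 without FANCJ and 1.51 with it.

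**Figure D3:**
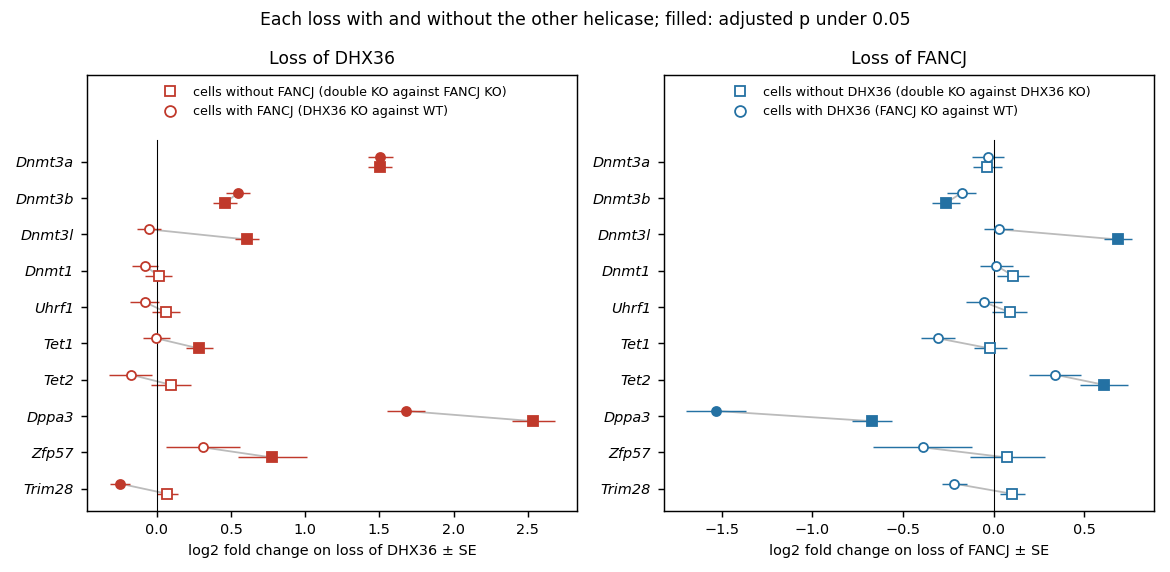
Log2 effect of losing DHX36 and of losing FANCJ on each gene, where the other helicase was absent and where it was present, with bars of 1 SE from edgeR; squares are cells without the other helicase, circles cells with it, and filled symbols are called. Dnmt3a shows the same DHX36 effect in both (1.50 and 1.51), and Dnmt3l is called where the other helicase was absent (0.61 for DHX36 loss and 0.69 for FANCJ loss).

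The genes whose log2 levels followed 2 members most closely were ranked by Pearson's r over the 12 libraries among 7704 genes, as a description with no test, since libraries of 4 genotypes are not independent points. Closest to Dnmt3a were Gadd45a (r = 0.996, Spearman's rho = 0.79), a growth arrest and stress gene linked to active demethylation, Pfkp (r = 0.989, rho = 0.72), a phosphofructokinase of glycolysis, and Tra2a (r = 0.989, rho = 0.83), a splicing regulator. Gadd45a averaged 383 ± 16.5 CPM in DHX36 KO, 148 ± 2.46 in FANCJ KO, 353 ± 8.25 in the double knockout and 149 ± 2.85 in WT (SD, n = 3 each). Closest to Dppa3 were Rarg (r = 0.97, rho = 0.96), a retinoic acid receptor, Car2 (r = 0.96, rho = 0.90), a carbonic anhydrase, and Snx10 (r = 0.96, rho = 0.94), a sorting nexin. Rarg averaged 471 ± 52.9 CPM in DHX36 KO, 232 ± 13.8 in FANCJ KO, 399.8 ± 13.6 in the double knockout and 304 ± 11.9 in WT, a narrower span than that of Dppa3.

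Beyond the members, 83 genes of the same pathway in 7 lists were followed, of which 78 had enough counts to be tested. In DHX36 KO, 13 rose and 10 fell, in FANCJ KO 1 rose and none fell, and in the double knockout 17 rose and 11 fell, against WT. Beside 24.4%, 2.07% and 33.9% of all genes called, these counts were close to the background. The counts per list below are small and are to be read against the same shares. The median log2 change of the 78 was 0.03 in DHX36 KO, 0.00 in FANCJ KO and 0.10 in the double knockout. The 1 gene called in FANCJ KO was Gadd45g (0.60, adjusted p = 0.0302 in edgeR), which fell by 0.95 in the double knockout. Its call in FANCJ KO was lost without FANCJ KO library 2 (adjusted p = 0.0863), FANCJ KO library 3 (adjusted p = 0.124), WT library 1 (adjusted p = 0.136) or WT library 2 (adjusted p = 0.0856), with the 2 genotypes fitted alone and at equal depth.

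Among 12 partners of maintenance methylation, 2 rose and 3 fell in DHX36 KO, and 2 rose and 4 fell in the double knockout. Uhrf2, the paralogue of Uhrf1, averaged 139 ± 8.84 CPM in DHX36 KO, 84.6 ± 8.74 in FANCJ KO, 127 ± 7.29 in the double knockout and 79.9 ± 3.89 in WT (SD, n = 3 each), and rose by 0.80 in DHX36 KO and 0.68 in the double knockout on the log2 scale. Pclaf, a PCNA-binding protein that helps bring in DNMT1, averaged 114 ± 9.93 CPM in DHX36 KO, 193 ± 10.4 in FANCJ KO, 101 ± 8.0 in the double knockout and 183 ± 18.6 in WT, and fell by 0.68 in DHX36 KO and by 0.85 in the double knockout. Pcna, the replication clamp itself, fell by 0.32 in DHX36 KO, and Suv39h1, a histone H3 lysine methyltransferase, fell by 0.51 in the double knockout.

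Of 10 tested genes that target or regulate de novo methylation, 2 rose and 1 fell in DHX36 KO, and 5 rose and 1 fell in the double knockout. Dppa2, which keeps bivalent promoters free of methylation, rose by 0.60 in DHX36 KO and 0.74 in the double knockout. Kdm2b, which binds unmethylated CpG islands, rose by 0.47 in DHX36 KO. In the double knockout Nsd1, a histone methyltransferase whose mark attracts the de novo enzymes, rose by 0.56 and its relative Nsd2 fell by 0.66.

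Of 15 tested genes for oxidation, excision and repair of modified cytosine, 3 rose and 2 fell in DHX36 KO, and 1 rose and 1 fell in the double knockout. The one that rose in both was Gadd45a, by 1.37 in DHX36 KO and 1.25 in the double knockout. Tet3, the third member of the TET family, averaged 24.5 ± 6.09 CPM in DHX36 KO, 25.9 ± 0.829 in FANCJ KO, 19.0 ± 1.97 in the double knockout and 20.6 ± 0.891 in WT. Among 8 readers of methylated CpG, 3 rose in DHX36 KO and 4 in the double knockout, and none fell. Mbd4, a reader with a glycosylase domain that removes thymine from mismatches, rose by 0.98 in DHX36 KO and 0.65 in the double knockout.

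Of 16 genes of the TRIM28 silencing complex, 1 rose and 1 fell in DHX36 KO, and 2 rose and 3 fell in the double knockout. Atf7ip, a cofactor of the H3K9 methyltransferase SETDB1, rose by 0.79 in DHX36 KO and 0.68 in the double knockout, and Zfp809, which brings TRIM28 to proviruses, rose by 0.87 in the double knockout. Cbx3, a heterochromatin protein, fell by 0.38 and Morc2a, which compacts silenced chromatin, by 0.46 there. Of 8 genes of methyl donor and cofactor supply, 1 rose and 1 fell in each. Idh1, which makes the 2-oxoglutarate that TET enzymes need, rose by 1.06 in the double knockout with 82.9 ± 3.69 CPM, against 39.7 ± 4.15 in WT, and Ahcyl1, a relative of the enzyme that clears the methylation by-product S-adenosylhomocysteine, fell by 0.51 there.

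Germline genes that promoter methylation can silence moved in both directions against WT. Not all were silent in WT, where Sycp3 averaged 32.9 CPM and Asz1 was at 0. Of 9 tested, 1 rose and 2 fell in DHX36 KO, and 2 rose and 1 fell in the double knockout. Taf7l, a germ cell transcription factor subunit, rose by 2.24 in DHX36 KO and 2.65 in the double knockout, on low counts of 14 to 42 in DHX36 KO and 45 to 64 in the double knockout, and 1 to 4 in WT. Dazl, a germ cell RNA-binding protein, averaged 26.5 ± 3.40 CPM in the double knockout and 14.4 ± 0.638 in WT, and rose by 0.88. Tex19.1, a germline gene that limits retrotransposons, fell by 0.66 in DHX36 KO, with 97.0 ± 14.7 CPM against 152 ± 28.8 in WT. It was thus expressed in WT. The median log2 change of the 9 against WT was -0.53 in DHX36 KO, 0.20 in FANCJ KO and 0.12 in the double knockout. In the double knockout 5 rose and none fell against DHX36 KO, and 2 rose and 2 fell against FANCJ KO. In DHX36 KO 1 rose and 5 fell against FANCJ KO. The shares of all genes called in these comparisons are given above. The changes named for these lists passed edgeR's test at an adjusted p under 0.05 and, other than that of Gadd45g in FANCJ KO, held under every alternative.

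Of 45 changes named by the rule of up to 4 called genes per list and comparison, 27 held under every alternative and 18 were lost under some. In DHX36 KO, Zbtb4 (1.55), Neil2 (1.00) and Mael (-0.68) lost the call at equal depth and under no other alternative. So did Cdca7l (-0.72) and Prdm14 (0.87) in the double knockout. In the double knockout the calls of Zbtb4 (1.25, adjusted p = 0.0733 without WT library 2), Zbtb38 (0.48, 0.109 without WT library 2), Ddx4 (-0.60, 0.0823 without WT library 3) and Mbd3 (0.31, 0.114 without WT library 1) were lost when a single library was left out. The library named gave the highest adjusted p in edgeR among those left out. The calls of Zbtb4, Zbtb38 and Ddx4 were also lost at equal depth, with an adjusted p in edgeR of 0.168, 0.347 and 0.285. In DHX36 KO, the calls of Gadd45g (-0.42), Ahcyl1 (-0.38), Parp1 (-0.32), Idh1 (0.31), Nsd2 (-0.31), Ehmt1 (0.31), Mbd3 (0.30) and Hdac1 (-0.24) were each lost when 1 of at least 3 different libraries was left out, with the highest adjusted p, 0.299, for Parp1 without WT library 3.

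**Figure D4:**
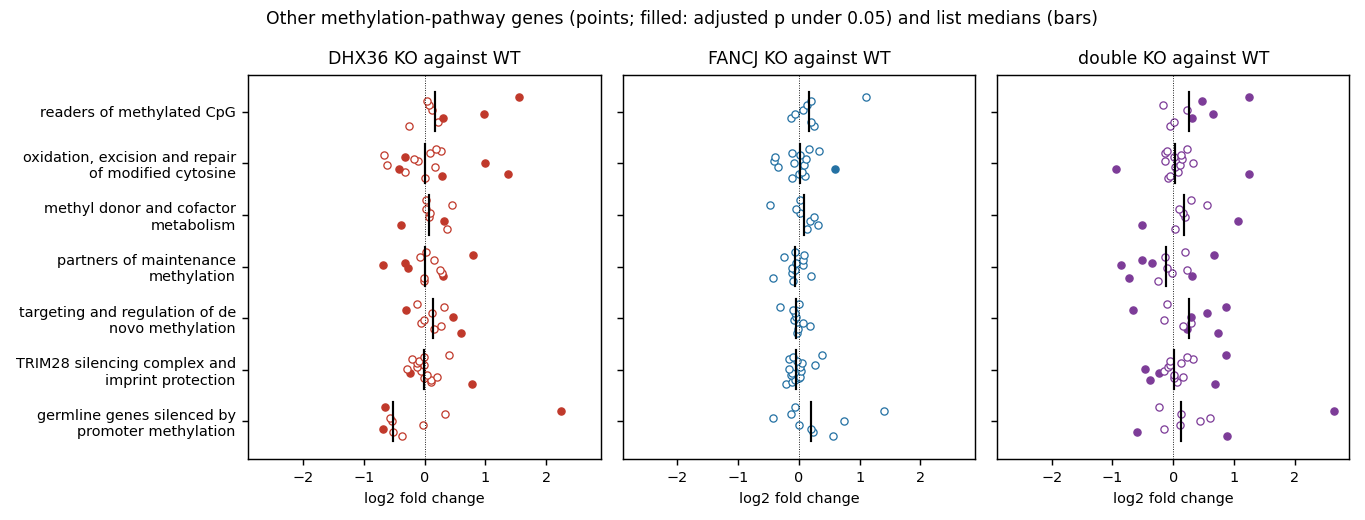
Log2 fold change against WT of the genes tested in each of the 7 pathway lists, in DHX36 KO, FANCJ KO and the double knockout; each point is a gene, filled points are called by edgeR, and the bar is the median of the list. Most points lie near 0, and in FANCJ KO 1 of 78 is called.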

How the data were processed

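The authors deposited 1 table of raw counts per gene for 12 libraries, with gene symbols and identifiers, from 3′ tag RNA sequencing per the labels' protocols. Counts of a 3′ tag do not scale with transcript length. No test compared levels between genes. The marker sums, their largest parts and the lowest counted member do set levels of genes side by side, and the highest genes weigh most in a sum. edgeR 4.0.16 (R 4.3.3, limma 3.58.1) kept 12765 of 32285 genes by filterByExpr, scaled library totals by TMM, and fitted all 12 libraries together with 1 term per genotype. Each of 7 comparisons was tested with the quasi-likelihood F test and Benjamini-Hochberg adjustment over all 12765 genes at 0.05. SE is the log2 fold change over the root of F, and intervals are 95%. The fit was tested on simulated counts with the same spread for every gene and independent libraries. Such counts cannot speak to differences in spread between genes or to differences between clones. The alternatives were DESeq2 1.42.0, edgeR with RLE size factors, no filter, equal depth, both genotypes of a comparison fitted alone, each library left out, and a replicate block. Same-numbered libraries did not deviate together (correlations from -0.0563 to 0.0462 over 18 pairs). Members and lists were chosen with earlier results of these data known. The text names every member and, per pathway list and comparison with WT, up to 4 called genes by size of change. Coordinates are GRCm38 (GENCODE M21) and promoters RefSeq GRCm38.p6. Of exons shared with other genes, the antisense partners of Dnmt3a and Tet2 had 2 and 0 counts over 12 libraries, and Aire, opposite to Dnmt3l, had 396. Processed pseudogenes of Dppa3, Dnmt3a and Dnmt3l are annotated but not listed in the table, and how reads shared with them were counted is not given in the sources used here.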

Additional observations from a re-analysis of the deposited data

Results flagged for a closer look

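The effect of losing FANCJ differed with the DHX36 genotype for 3 members, by the interaction term of edgeR's fit over all 12 libraries. Of all genes, 8.79% were called for this term (2.73% positive and 6.06% negative), so nothing particular to the members follows from the count. The effect without DHX36 minus that with DHX36 was 0.66 on the log2 scale for Dnmt3l (adjusted p = 0.000555). All 3 double knockout libraries lay above all 9 others for this gene. For Dppa3 it was 0.86 (adjusted p = 0.00776), and all 3 libraries of each genotype were apart from those of the others. For Trim28 it was 0.32 (adjusted p = 0.0472), which did not hold under most alternatives.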

How the results depend on the processing

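Of 70 results for the members (10 genes in 7 comparisons), 29 were called, and none of these changed direction under any alternative. Of all genes, 2.07% (FANCJ KO against WT) to 36.8% (double knockout against FANCJ KO) were called. The 7 comparisons draw on the same 12 libraries, so the 70 results are not independent. Over all alternatives, 1162 values kept their direction and side of the threshold, 41 lost the call, 1 gained it and 46 changed sign, all 46 among differences that were not called. With libraries thinned to an equal depth, the genes called fell to 2044 of 3113 in DHX36 KO against WT, 105 of 264 in FANCJ KO against WT, 1416 of 2512 in the double knockout against DHX36 KO, 3080 of 4697 against FANCJ KO, 2530 of 3857 in DHX36 KO against FANCJ KO and 560 of 1122 for the interaction, where fewer counts are tested. In FANCJ KO against WT the count was 418 with no filter and 159 with both genotypes fitted alone, and 110 to 265 with 1 library left out. Members called numbered 2 in place of 4 at equal depth in the double knockout against DHX36 KO, 2 in place of 1 in DESeq2 in FANCJ KO against WT, and 3 to 5 in place of 5 in the double knockout against WT with 1 library left out, with 3 without WT library 2. Sign changes (log2) were Tet1 in DHX36 KO against WT at 0.00397 with no filter and 0.00286 with both genotypes alone, and at equal depth Dnmt3a in FANCJ KO against WT at 0.0177, Uhrf1 in the double knockout against WT at -0.0115, Tet1 against DHX36 KO at 0.00457, Dnmt1 and Tet2 against FANCJ KO at -0.000600 and -0.0680, and the Dnmt3b interaction at 0.0286. With 1 library left out, the range was -0.15 to 0.0329 for Dnmt1, -0.0624 to 0.0867 for Tet1 and -0.31 to 0.00121 for Tet2 in DHX36 KO against WT. In FANCJ KO against WT it was -0.037 to 0.14 for Dnmt1, -0.073 to 0.0112 for Dnmt3a and -0.0965 to 0.00823 for Uhrf1. In the double knockout it was -0.0308 to 0.14 for Dnmt1, -0.0763 to 0.0765 for Tet1 and -0.0966 to 0.0833 for Uhrf1 against WT, -0.0725 to 0.00246 for Dnmt3a, -0.0609 to 0.043 for Tet1, -0.0101 to 0.18 for Uhrf1 and -0.16 to 0.19 for Zfp57 against DHX36 KO, and -0.0364 to 0.0625 for Dnmt1, -0.0415 to 0.17 for Tet2 and -0.0491 to 0.14 for Uhrf1 against FANCJ KO. In DHX36 KO against FANCJ KO it was -0.0607 to 0.00354 for Trim28 and -0.11 to 0.0152 for Uhrf1, and for the interaction -0.0281 to 0.15 for Dnmt1 and -0.0451 to 0.0455 for Dnmt3a. Beyond the settings themselves, the causes of these changes were not tested.

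The replicate numbers gave no sign of pairing the libraries, which correlations from 3 libraries per genotype cannot settle. A fit with the number as a replicate block called 3004 genes in DHX36 KO, 233 in FANCJ KO and 4264 in the double knockout against WT. With the block the Trim28 interaction was not called (0.32, adjusted p = 0.0699 in edgeR), no other call among the members changed, and Uhrf1 in the double knockout against WT stood at -0.00131. Zfp57 had the lowest counts of the members, 15 in its lowest library.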
